A study of Mus musculus with 28 samples.

Results

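Ctgf (now Ccn2), Cyr61 (now Ccn1) and Ankrd1 are the standard readout genes of the transcriptional co-activator YAP and its DNA-binding partners, the TEAD factors. Open chromatin around them was followed in 28 ATAC-seq libraries (a transposase cuts DNA where chromatin is accessible) from mouse cells on the way from fibroblast to induced pluripotent stem cell. The loci were taken as fixed windows of build mm9: chr10:24230000-24400000 for Ctgf, chr3:145250000-145370000 for Cyr61 and chr19:36130000-36250000 for Ankrd1. Peaks of all 28 lists that overlap a window were merged where they shared 1 bp or more. This gave 58 merged regions of 172177 in the genome, 14 at Ctgf, 27 at Cyr61 and 17 at Ankrd1. Of the 58, 46 were called in 2 or more libraries and 12 in 1 library (20.7%, against 36.1% of all merged regions). Regions are numbered along each window. No mm9 annotation was used here, so no region is assigned to a promoter, exon or intron. In the RefSeq gene table of build GRCm38.p6, used for names and order only, the nearest protein-coding genes are Moxd1 and Enpp1 for Ctgf, Znhit6 and Ddah1 for Cyr61, and Rpp30 and Pcgf5 for Ankrd1.

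All cells were mouse embryonic fibroblasts (MEFs) of strain background V6.5 129XBI/6 from embryonic day 12.5, deficient for Tet2 and carrying doxycycline-inducible OKSM (Oct4, Klf4, Sox2 and c-Myc) with the rtTA activator. The 7 groups had 4 libraries each: untreated MEFs (day 0), and day 5 or day 10 of reprogramming after retroviral transfer of the empty pMXs vector, wild-type Tet2 (Tet2-WT) or a stalling mutant (Tet2-E). TET enzymes oxidise 5-methylcytosine stepwise. Cells of days 5 and 10 were SSEA1-RFP sorted and had been grown with LIF, doxycycline, the MEK inhibitor PD0325901 and the GSK3 inhibitor CHIR99021 on Mito-C MEF feeder cells. The labels name no sort for the MEFs, which were kept in fibroblast medium, so day, sort, medium, feeders and virus cannot be told apart in any comparison with MEFs. Nothing in the labels says that replicates were separate cultures or embryos, so the p-values speak only to spread among libraries, part or all of which may be technical.

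The Hippo kinases LATS1 and LATS2 phosphorylate YAP and its paralogue TAZ and keep them out of the nucleus. When the kinases are low, as in spread fibroblasts on stiff plastic, YAP and TAZ enter the nucleus and act through TEAD factors, often at distal enhancers that also hold AP-1 sites. Ctgf and Cyr61 encode secreted matricellular proteins of the CCN family, which bind integrins and growth factors. Ankrd1 encodes an ankyrin-repeat protein of muscle and of stretched or wounded tissue that acts at the sarcomere and in the nucleus.

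Promoter sequence stood in the RefSeq tables for 2 of the 3 genes, Cyr61 and Ankrd1, and is shown because YAP acts through TEAD factors. Whether these stretches carry the response to YAP was not tested. Each run is the 250 bases before the annotated start on the gene's strand in GRCm38.p6, at chr3:145649986-145650235 (minus strand) for Cyr61 and chr19:36119845-36120094 (minus strand) for Ankrd1. Capitals mark the TEAD core, GGAATG or its reverse complement CATTCC.
Cyr61: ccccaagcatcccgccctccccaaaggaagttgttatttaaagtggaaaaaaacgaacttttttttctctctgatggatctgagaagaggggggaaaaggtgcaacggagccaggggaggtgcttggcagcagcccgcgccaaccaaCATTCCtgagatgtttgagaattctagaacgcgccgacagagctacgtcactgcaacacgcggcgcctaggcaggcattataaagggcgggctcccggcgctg
Ankrd1: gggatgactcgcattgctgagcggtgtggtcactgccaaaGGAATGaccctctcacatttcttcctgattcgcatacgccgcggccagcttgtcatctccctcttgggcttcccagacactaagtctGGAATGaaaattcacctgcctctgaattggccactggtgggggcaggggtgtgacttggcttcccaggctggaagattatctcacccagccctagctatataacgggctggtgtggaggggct
Cyr61 held 1 core, 103 to 98 bases before the start, and Ankrd1 held 2, at 210 to 205 and 123 to 118 bases before it. Of 32851 promoter stretches of this length in the table, 12.6% held at least 1 core on either strand and 1.02% held 2 or more. The AP-1 element TGANTCA, which reads the same way on the other strand, was in 6.75% of the stretches and in neither of these. A match is a description of letters, and these GRCm38.p6 stretches were not placed on the mm9 peaks.

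The lists held 41450 to 72332 peaks in MEFs, 41580 to 60361 at day 5 and 27918 to 50733 at day 10. Relative depth, read as the background pileup of each list, was 0.503 ± 0.113 for MEF lists (SD, n = 4). Day 5 lists had 0.865 ± 0.0732 and day 10 lists 0.522 ± 0.115 (SD, n = 12 each). The median peak was on average 194.5 bp wide in MEFs, 165 bp at day 5 and 148 bp at day 10. A region without a call had no peak at the authors' threshold, which is not the same as closed chromatin. A smaller share of cells open at a site and less opening per cell cannot be told apart in these bulk libraries.

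**Figure D1:**
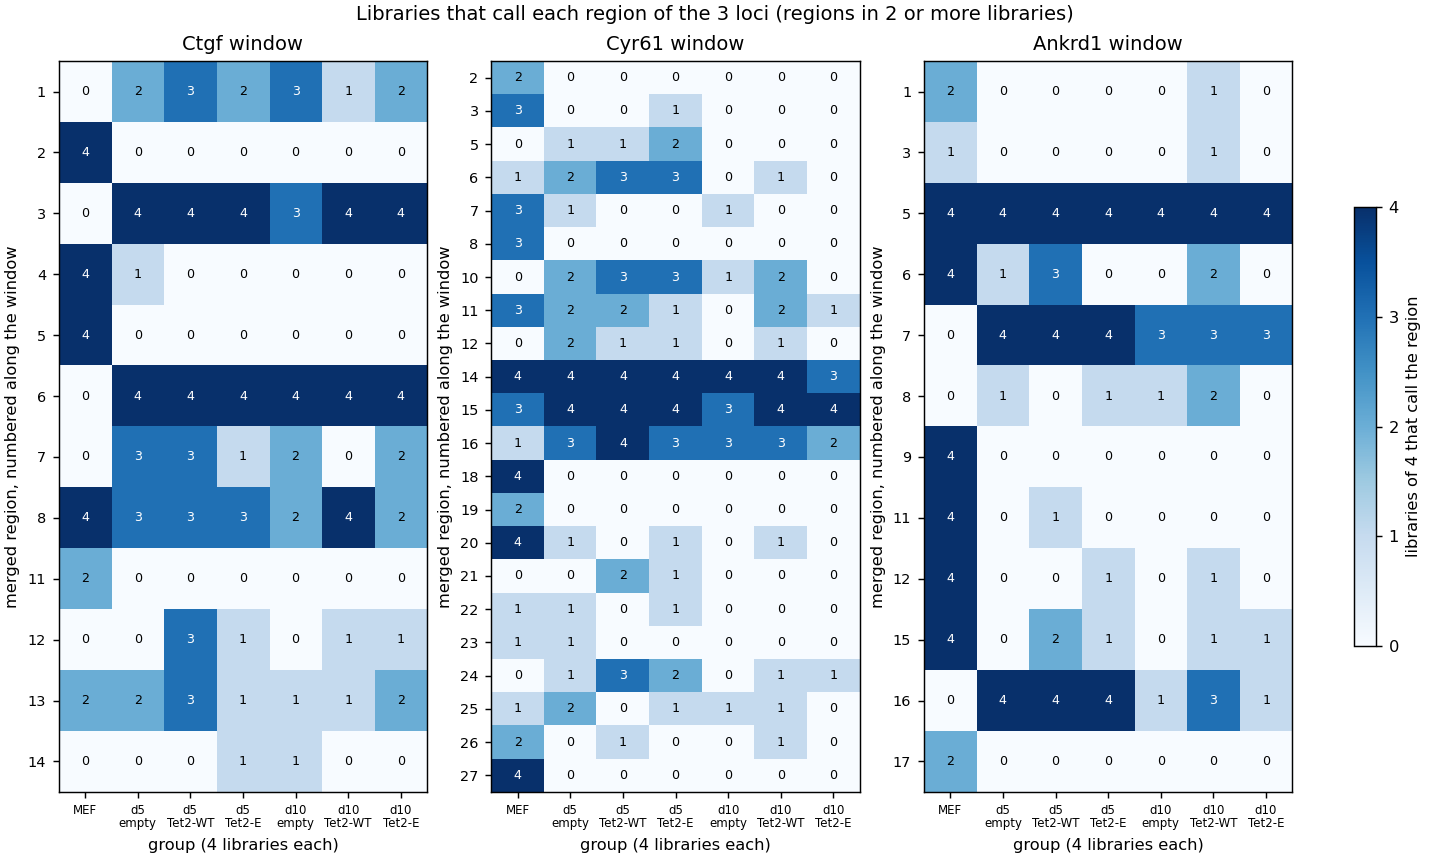
Number of libraries, of 4 per group, that call each merged region of the 3 windows; rows are the 46 regions called in 2 or more libraries in their order along the window, columns are the groups (d5, day 5; d10, day 10). Regions called in 4 MEF libraries and almost nowhere else stand in all 3 windows, and Ankrd1 region 5 is the only row of these windows at 4 of 4 in every group.

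Across the 3 windows, some regions open in MEFs dropped out of the peak lists by day 5 and day 10 and others appeared. Of the 58 regions, 17 were called only in MEFs (29.3%), 19 only in later libraries (32.8%) and 22 in both (37.9%). Over all 172177 merged regions these shares were 25.2%, 48.5% and 26.3%. Of 44 regions tested from MEF to day 5, 10 were called less often (22.7%) and 4 more often (9.09%). Over all 99090 regions tested in the genome the shares were 16.1% and 9.81%. From MEF to day 10, 13 of 40 regions were called less often (32.5%) and 2 more often (5%), against 22.6% and 5.66% of 89226 regions in the genome. The median region of the windows fell by 20.8 percentage points of libraries from MEF to day 5 and by 41.7 from MEF to day 10. The median over all regions tested was 0 and a drop of 8.33 points. Both comparisons share the 4 MEF libraries. The gained shares lie near those of the genome. The lost shares lie above them, a difference that was not tested. Only regions called in MEFs can be lost, and the windows held more of these. Of the 58 regions, 24.1% were called in all 4 MEF libraries, against 16.2% of all merged regions. Calls come from Fisher's exact test on the number of calling libraries with Benjamini-Hochberg adjustment over all regions tested, at a threshold of 0.05. A region in 4 of 4 MEF and 0 of 12 later libraries had an exact p = 0.000549, the smallest this design can give, which is an adjusted p = 0.00449 at day 5 and 0.00374 at day 10. Leaving out 1 replicate number of every group lowered the lost regions to 6 or 7 at day 5 and to 7 to 10 at day 10. The regions called in all libraries of one side and none of the other passed in each of these settings, and the other regions that passed were lost in 3 or 4 of the 4 settings.

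At Ctgf, some fibroblast regions dropped out of the lists, others stayed in part of them, and new regions appeared. Of 11 tested regions, 3 were called less often than in MEFs at both later days. In the genome 16.1% of tested regions were at day 5 and 22.6% at day 10. Region 2 (chr10:24273890-24274244) had the highest fold of the window, by the authors' value, which sets the summit pileup against the background of the same list. Its fold was 14.5, 10.8, 15.0 and 11.9 in MEF replicates 1 to 4, a median rank at the 93.3rd percentile of the MEF lists, and it was called in 0 of 24 later libraries. Region 4 (chr10:24300864-24301140) had folds of 9.04, 12.2, 13.9 and 10.97 in the MEFs. Of the later libraries it was called only in day 5 empty vector replicate 3, with a fold of 6.01 (adjusted p = 0.0165 at day 5 and 0.00374 at day 10, Fisher's exact test). Region 5 (chr10:24309176-24309412) was lower, with MEF folds of 7.07, 5.67, 7.13 and 6.17, and was in 0 of 24 later libraries. With equal peak numbers it was left in too few lists to be tested. All 3 regions thus stood in 4 of 4 MEF libraries and, with that 1 exception, in no later library.

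The new Ctgf regions were shared by all vectors. Regions 3 and 6, of 11 tested, were called more often than in MEFs at both later days. In the genome 9.81% of tested regions were at day 5 and 5.66% at day 10. Region 3 (chr10:24278165-24278539) went from 0 of 4 lists in MEFs to 12 of 12 at day 5 and 11 of 12 at day 10, the exception being a library with the empty vector. Its fold ran from 7.23 to 10.8 with a median of 8.80 at day 5, and from 5.77 to 11.5 with a median of 7.57 in the calling libraries of day 10. The adjusted p was 0.00449 for day 5 and 0.0156 for day 10 (Fisher's exact test). Region 6 (chr10:24310327-24310787) was in 0 of 4 MEF libraries and in 12 of 12 at both later days, with median folds of 6.65 and 7.94 (adjusted p = 0.00449 and 0.00374, Fisher's exact test). If peaks had to cover at least 50% of the region, regions 3 and 6 stood in 7 of 12 and 9 of 12 lists of day 10 and did not pass there (adjusted p = 0.161 and 0.0654, Fisher's exact test). Region 6 begins 914 bp after the end of region 5, so a fibroblast region and a reprogramming region neighbour each other there. Its other neighbour, region 7 (chr10:24310999-24311214), was in 0 of 4, 7 of 12 and 4 of 12 libraries and passed in no comparison.

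Region 8 of Ctgf (chr10:24315154-24315792) was the one most often called on both sides. It stood in 4 of 4 lists of MEFs, 9 of 12 of day 5 and 8 of 12 of day 10, and was singled out after its values were seen. It passed in no comparison, but it was narrower after day 0. Its peaks covered 533, 461, 600 and 598 bp in the MEFs, at most 284 bp at day 5 and at most 378 bp at day 10. The MEF libraries lay above all 24 others, while the median peak of whole lists narrowed from 194.5 to 165 and 148 bp. How many regions of the genome separate in this way was not counted. When every list was cut to the same peak number, it stood in 4 of 4 MEF lists and 0 of 12 of day 5 (Fisher's exact test, adjusted p = 0.00401). Of the remaining Ctgf regions, 1 and 12 to 14 were called in 2 to 13 libraries each with no comparison passed. Region 11 was in 2 MEF libraries, and regions 9 and 10 in 1 MEF library each.

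At Cyr61, 4 of 22 tested regions were called less often at day 5 than in MEFs (18.2%, against 16.1% of the genome) and 5 of 17 at day 10 (29.4%, against 22.6%). None passed as called more often, although 8 regions were called only in later libraries (29.6%, against 48.5% of all merged regions). Of these, region 10 (chr3:145290911-145291069) stood in 0 of 4 lists of MEFs, 8 of 12 of day 5 and 3 of 12 of day 10, and region 24 (chr3:145365041-145365255) in 0 of 4, 6 of 12 and 2 of 12. Both were singled out after their values were seen. Region 20 (chr3:145347938-145348488) had the highest fold there, 15.2, 13.7, 12.9 and 10.9 in the MEFs. Later it stood in 2 of 12 lists of day 5 and 1 of 12 of day 10, with folds from 6.11 to 7.19 (adjusted p = 0.0318 and 0.0156, Fisher's exact test). In an exact test within replicate numbers its day 5 call did not pass (adjusted p = 0.0601). Region 18 (chr3:145339269-145339488), with MEF folds of 9.04, 6.46, 9.97 and 6.37, and region 27 (chr3:145368299-145368703), with 7.05, 8.61, 8.42 and 6.79, were in 4 of 4 MEF and 0 of 24 later libraries. The last 2 regions that passed were missed by 1 MEF library. Region 8 (chr3:145281300-145281557) was in 3 of 4 MEF and 0 of 24 later libraries (adjusted p = 0.0311 at day 5 and 0.0276 at day 10, Fisher's exact test). With a -log10 q of at least 5 it stood in 2 MEF lists and did not pass (adjusted p = 0.129 and 0.118, Fisher's exact test). Region 3 (chr3:145265371-145265783) was in 3 of 4, 1 of 12 and 0 of 12, and passed only for day 10 (adjusted p = 0.0903 and 0.0276, Fisher's exact test). With equal peak numbers it passed for day 5 as well (adjusted p = 0.0304, Fisher's exact test). In an exact test within replicate numbers, regions 3 and 8 did not pass at day 10 (adjusted p = 0.0552 each). By that exact test region 8 did not pass at day 5 either (adjusted p = 0.0601).

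The MEF libraries differed from one another at Cyr61. Replicates 1 to 4 called 14, 6, 12 and 12 of the 27 regions there, so replicate 2 called the fewest. That library also had the fewest peaks of the MEFs (41450) and the lowest background pileup (0.394). It was the missing library for 4 of the 5 regions of the 3 windows that 3 of 4 MEF libraries called, all of them at Cyr61.

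In the middle of the Cyr61 window a pair of regions stayed in the lists throughout. Region 14 (chr3:145312702-145313186) stood in 4 of 4 lists of MEFs, 12 of 12 of day 5 and 11 of 12 of day 10. Region 15 (chr3:145314380-145315071), 1193 bp further on, was in 3 of 4, 12 of 12 and 11 of 12. Region 16 (chr3:145316326-145316655) followed after 1254 bp and was in 1 of 4, 10 of 12 and 8 of 12. These were singled out after their values were seen, and none passed in any comparison. They were weak peaks, with median folds of 5.47, 5.09 and 5.06, at the 26.6th, 15.0th and 20.5th percentile of the lists that called them. The lost region 20 stood at the 85.8th.

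**Figure D2:**
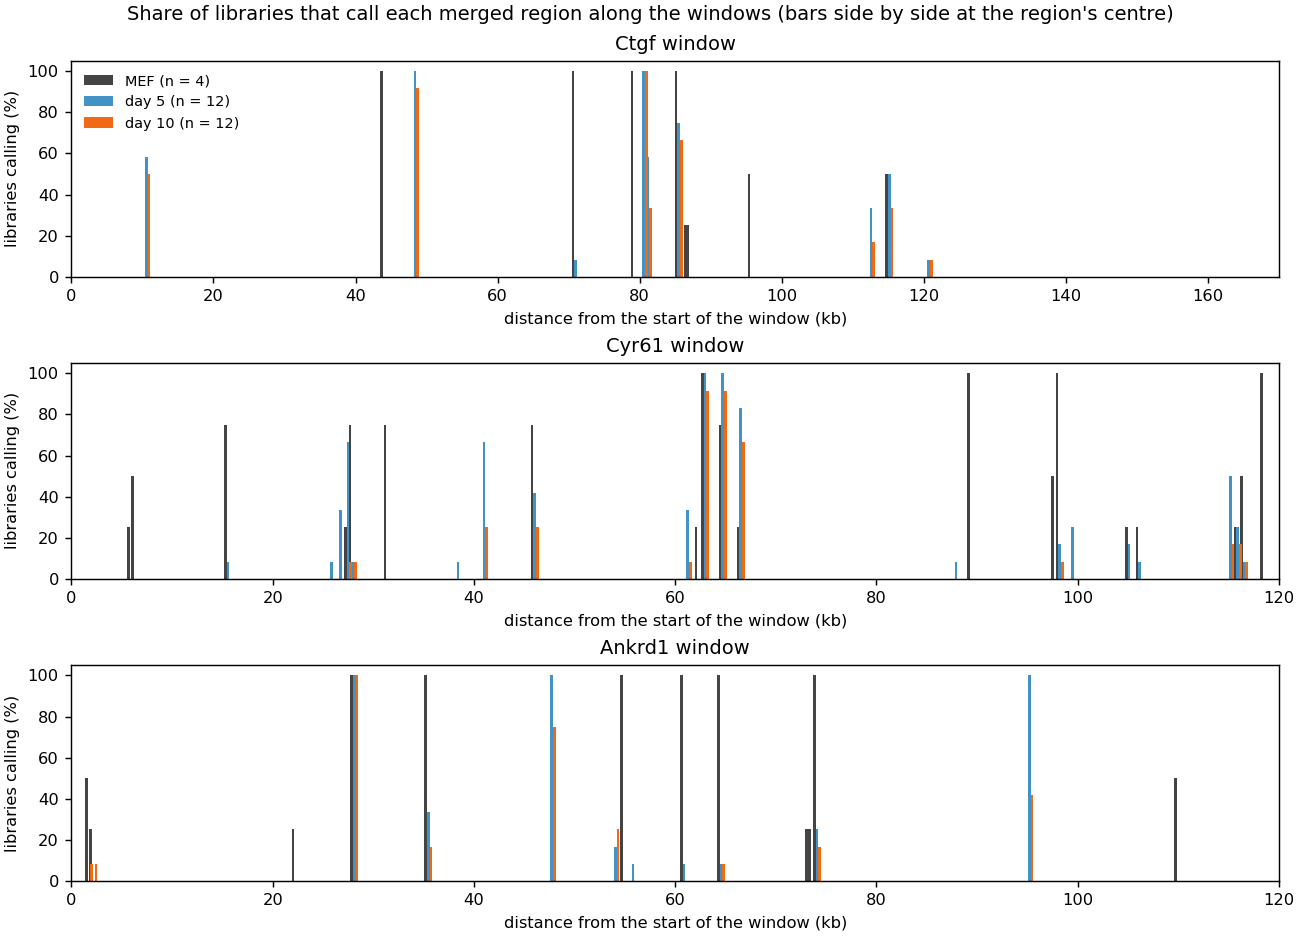
Share of libraries (percent) that call each merged region, drawn at the region's distance from the window start in kb, for MEFs (4 libraries), day 5 (12) and day 10 (12). At Cyr61 the 3 shares are high together only in the middle of the window, while MEF-only bars stand on either side of it; at Ctgf the day 5 and day 10 bars at 100% stand beside MEF bars, not on them.

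At Ankrd1, 3 of 11 tested regions were called less often at day 5 than in MEFs, and 5 of 12 at day 10. In the genome 16.1% of tested regions were at day 5 and 22.6% at day 10. Region 12 (chr19:36194289-36194780) had MEF folds of 8.19, 12.2, 11.6 and 12.6 and was called in 1 of 12 libraries at each later day, with folds of 4.89 and 4.35 (adjusted p = 0.0165 and 0.0156, Fisher's exact test). Region 11 (chr19:36190735-36191023) had MEF folds of 8.73, 8.32, 6.95 and 12.3 and was in 1 of 12 and 0 of 12 later libraries (adjusted p = 0.0165 and 0.00374, Fisher's exact test). Region 9 (chr19:36184565-36185254) was weaker, with 6.34, 5.63, 5.02 and 5.59, and was in 0 of 24. With equal peak numbers region 9 was left in too few lists to be tested. All 4 MEF libraries called the 3 regions, which together had 3 calls in the 24 later libraries.

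A further pair of Ankrd1 regions passed at day 10 but not at day 5 when every peak of the lists counted. Region 15 (chr19:36203739-36204450) stood in 4 of 4 lists of MEFs, 3 of 12 of day 5 and 2 of 12 of day 10 (adjusted p = 0.0678 and 0.0292, Fisher's exact test). Its peaks covered 464 to 712 bp in the MEFs and 72 to 139 bp in the later libraries that called it. With a -log10 q of at least 5 it passed for day 5 too, at 4 of 4 and 0 of 12 (adjusted p = 0.00425, Fisher's exact test). Region 6 (chr19:36165362-36165568) was in 4 of 4, 4 of 12 and 2 of 12 (adjusted p = 0.0292 at day 10, Fisher's exact test). If peaks had to cover at least 50% of region 6, it passed at day 5, at 4 of 4 and 1 of 12 (adjusted p = 0.0224, Fisher's exact test). With equal peak numbers region 6 stood in 2 of 4 lists of MEFs and 2 of 12 of day 10 and did not pass (adjusted p = 0.47, Fisher's exact test). In an exact test within replicate numbers neither region 6 nor region 15 passed at day 10 (adjusted p = 0.0552 each).

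The Ankrd1 window also held new regions. Regions 7 and 16, of 11 tested, were called more often than in MEFs at day 5, against 9.81% of tested regions in the genome. At day 10 no region of 12 tested passed as called more often, against 5.66% in the genome. Background pileup was higher at day 5 (0.865) than at day 10 (0.522), and its part in these calls was not tested. Region 7 (chr19:36177393-36178032) went from 0 of 4 lists in MEFs to 12 of 12 at day 5 (adjusted p = 0.00449, Fisher's exact test), with a median fold of 8.08. Only 4 of 12 lists of day 5 covered at least 50% of it, and by that rule it did not pass (adjusted p = 0.725, Fisher's exact test). At day 10 it was in 9 of 12, with a median fold of 6.02, and the comparison with MEFs missed the threshold (adjusted p = 0.0634, Fisher's exact test). Region 16 (chr19:36224956-36225450) stood in 0 of 4 lists of MEFs, 12 of 12 of day 5 and 5 of 12 of day 10 (adjusted p = 0.00449 for the gain at day 5, Fisher's exact test). The calls at day 10 came from 3 libraries of Tet2-WT and 1 each of the empty vector and Tet2-E. With equal peak numbers the day 5 gain of region 16 did not pass, at 8 of 12 libraries (Fisher's exact test, adjusted p = 0.19).

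Region 5 of Ankrd1 (chr19:36157483-36158776) was the only region of the 3 windows called in all 28 libraries. That is 1.72% of the 58 regions, against 7740 regions or 4.50% of all merged regions of the genome. Region 5 was wider in fibroblasts. Its peaks covered 972, 986, 832 and 831 bp in the MEFs, 139 to 535 bp at day 5 and 119 to 443 bp at day 10. No later library reached the lowest MEF value. Peaks of whole lists were also wider in MEFs, with mean median widths of 194.5 bp against 165 bp at day 5 and 148 bp at day 10. How many regions of the genome separate MEFs by width in this way was not counted. The background pileup was higher at day 5 than in MEFs (0.865 and 0.503) and about level at day 10 (0.522), and its part in these widths was not tested.

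**Figure D3:**
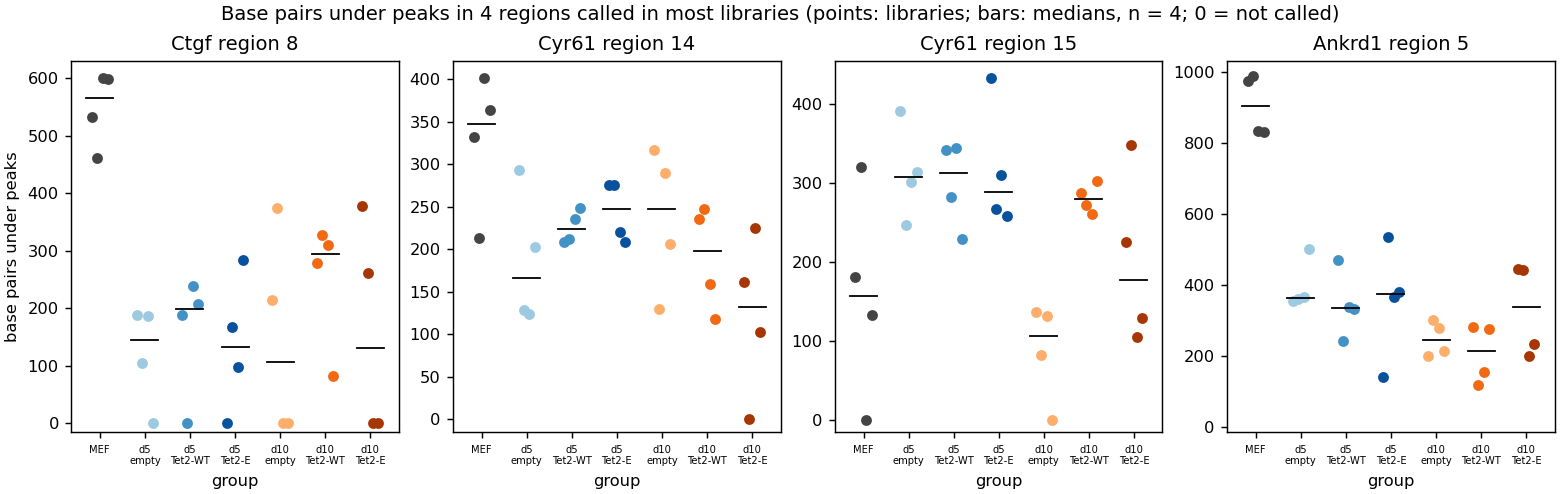
Base pairs under peaks in each library (points; bars are medians, 4 libraries per group; 0 means not called) for 4 regions called in most libraries. At Ctgf region 8 and Ankrd1 region 5 the 4 MEF points lie above all later points, while at Cyr61 region 14 the groups overlap and at Cyr61 region 15 the MEF points lie among or below those of day 5.

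The windows as wholes were compared by their peak cover, the base pairs of the window under peaks for each Mb under peaks in the whole list. In this measure Ankrd1 had the lowest ratios to MEFs of the 3 windows. Its cover was 176, 220, 209 and 205 in MEF replicates 1 to 4. At day 5 it ran from 81.2 to 121 with a median of 101, and at day 10 from 35.5 to 104 with a median of 69.2. The mean was 0.503 times that of MEFs at day 5 and 0.352 times at day 10, with no overlap between MEFs and later libraries. Each change had p = 0.000549, the smallest possible, in an exact permutation test, with adjusted p = 0.00212 and 0.00225. Of 17721 windows of the genome tested, 28.6% had lower and 22.7% higher cover at day 5, and of 17798 tested at day 10, 30.1% had lower and 18.5% higher cover.

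Cyr61 fell as well. Its cover was 177, 147, 206 and 214 in the MEFs. It ran from 87.4 to 146 with a median of 119 at day 5, and from 43.2 to 131 with a median of 77.9 at day 10. No later library reached the lowest MEF value. The mean was 0.631 times that of MEFs at day 5 and 0.437 times at day 10 (exact permutation p = 0.000549, adjusted p = 0.00212 and 0.00225). Counted as peaks per 10000 in place of base pairs, the day 5 ratio was 0.778 and did not pass (exact permutation, adjusted p = 0.137). By peak number the order of the windows at day 10 turned, with 0.504 at Cyr61 and 0.603 at Ankrd1, and no difference between the windows was tested.

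At Ctgf the cover did not pass in either comparison. It was 121, 92.5, 117 and 93.7 in the MEFs, 55.0 to 111 with a median of 92.0 at day 5, and 68.3 to 159 with a median of 106 at day 10. The groups overlapped, and neither comparison with MEFs passed (exact permutation, p = 0.0945 and 0.571, adjusted p = 0.147 and 0.667). The ratios to the MEF mean were 0.833 and 1.08 (means 106 ± 15.0, 88.2 ± 17.7 and 114.5 ± 27.4, SD, n = 4, 12 and 12). The call depends on the measure. In raw base pairs Ctgf fell to 0.631 and 0.567 times the MEF mean (exact permutation, adjusted p = 0.0322 and 0.017), and with equal peak numbers it fell to 0.701 times at day 5 (exact permutation, adjusted p = 0.01). With a -log10 q of at least 5 it fell to 0.758 times at day 5 (exact permutation, adjusted p = 0.00518). By number of peaks the ratios were 1.035 and 1.25 and did not pass (exact permutation, adjusted p = 0.896 and 0.489). Whether Ctgf differed from the other loci was not tested.

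**Figure D4:**
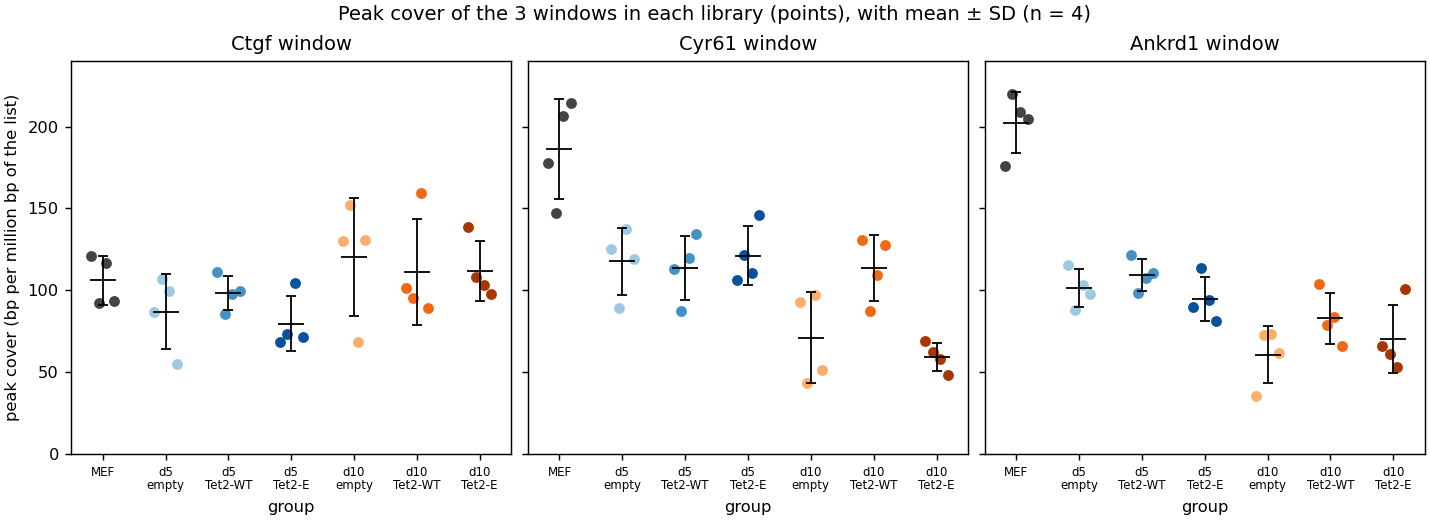
Peak cover of each window (base pairs under peaks for each Mb under peaks in the list) in each of 28 libraries, with mean ± SD (n = 4). MEF points of Cyr61 and Ankrd1 lie above every later point, whereas those of Ctgf lie among the later ones.

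From day 5 to day 10 no single region of the windows passed, while cover went on falling at Cyr61 and Ankrd1. Of 30 regions tested, 0 passed in the exact test stratified by vector, where 1% of the genome's regions were called less often and 0.144% more often. An unadjusted p under 0.05 in either direction was found for 2 of the 30 (6.67%) and for 10165 of 83195 regions of the genome (12.2%). These 2 were Ankrd1 region 16 (12 of 12 to 5 of 12, exact p = 0.0051, adjusted p = 0.136) and Cyr61 region 6 (chr3:145277210-145277743, 8 of 12 to 1 of 12, exact p = 0.0112, adjusted p = 0.208). With only peaks of a -log10 q of at least 5, Ankrd1 region 16 went from 12 of 12 to 1 of 12 libraries and passed (exact test, adjusted p = 0.0114). Its peaks covered 95 to 495 bp at day 5 and 85 to 206 bp in the calling libraries of day 10.

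Mean cover at day 10 was 0.700 times that of day 5 at Ankrd1 (exact permutation within vectors, adjusted p = 0.00214) and 0.692 times at Cyr61 (adjusted p = 0.012). At Ctgf it was 1.30 times that of day 5 and did not pass (exact permutation, adjusted p = 0.0526). Over the genome 15.1% of 17161 windows fell and 11.1% rose. Background pileup was lower at day 10 than at day 5 (0.522 and 0.865), and its part in these ratios was not tested. With equal peak numbers the ratios were 0.683 at Ankrd1 and 0.812 at Cyr61 and did not pass (exact permutation, adjusted p = 0.0845 and 0.249). At Cyr61 the call was also lost without replicate 3 and without replicate 4 of every group (exact permutation, adjusted p = 0.0643 and 0.0808). Without replicate 3 the rise at Ctgf passed, at 1.38 times (exact permutation, adjusted p = 0.0315).

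The vectors were compared within days, 8 libraries against 8, to ask whether wild-type or stalling Tet2 changed these loci. No region of the windows passed in any of the 3 comparisons, where 0% of regions in the genome did (exact test stratified by day, all adjusted p = 1). Over so many regions, an adjusted p under 0.05 needs many of them at the smallest p the design allows. A change confined to these loci could thus not have passed, so the lack of calls does not decide the question. An unadjusted p under 0.05 was found for 0 of 27 regions for Tet2-WT and 0 of 26 for Tet2-E against the empty vector, and for 1 of 27 for Tet2-E against Tet2-WT. In the genome it was found for 525 of 74168 (0.708%), 340 of 71000 (0.479%) and 404 of 73329 regions (0.551%). That region was Ankrd1 region 6, which stayed in 3 of 4 Tet2-WT libraries at day 5 and 2 of 4 at day 10. Region 6 was in 0 of 8 with Tet2-E (exact p = 0.0306, adjusted p = 1) and in 1 of 8 with the empty vector. For Tet2-WT against the empty vector the smallest p belonged to Ctgf region 12 (chr10:24342474-24342628), called in 4 of 8 and 0 of 8 libraries (exact p = 0.0714, adjusted p = 1). For Tet2-E against the empty vector no region had an exact p below 0.5.

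Cover did not separate the vectors past the threshold either, with 0% of windows called. The smallest p of any window was 0.000408 in each comparison (exact permutation within days), the smallest this design can give. Here too a change confined to these windows could not have passed. At Ankrd1, Tet2-WT had 96.1 ± 18.5 (SD, n = 8) against 80.9 ± 25.7 (SD, n = 8) with the empty vector (exact permutation within days, p = 0.0424, adjusted p = 1). This ratio of 1.19 depended on the measure. With a -log10 q of at least 5 it was 1.02, and with equal peak numbers 1.08 (exact permutation, p = 0.898 and 0.649). By peak number it was 1.20 and in raw base pairs 1.31 (exact permutation, p = 0.222 and 0.0343). Within replicate numbers the exact permutation p was 0.00781 (adjusted p = 0.972). At Cyr61 on day 10, cover was 131, 87.0, 109 and 128 in Tet2-WT replicates 1 to 4, and 68.8, 62.3, 57.9 and 48.2 with Tet2-E. The empty vector had 92.8, 43.2, 96.9 and 51.3. The Tet2-WT libraries lay above all those with Tet2-E on that day, while at day 5 these groups overlapped, at 87.4 to 134 and 106 to 146. Over both days the comparison of Tet2-E with Tet2-WT had a ratio of 0.793 (exact permutation within days, p = 0.0714, adjusted p = 1). That ratio was 0.952 with a -log10 q of at least 5 (exact permutation within days, p = 0.711). In raw base pairs, with equal peak numbers and by peak number it was 0.769, 0.780 and 0.815. A difference at a single day was not tested, and day 10 at Cyr61 was singled out after its values were seen. How many windows of the genome separate these vectors at day 10 was not counted.

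No region of the 3 windows was called at day 10 alone, where 11.9% of all regions were, and 7 of the 58 were called at day 5 alone (12.1%, against 18.0% of all regions).

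Over the 28 libraries the covers of Cyr61 and Ankrd1 went together (Pearson r = 0.79), whereas Ctgf followed neither (r = -0.25 with Cyr61 and -0.12 with Ankrd1). These correlations are descriptions over libraries that share their groups and depth. The 120000 bp tiles of the genome whose cover was most like that of Ankrd1 lay at chr12:117360001-117480000 (r = 0.95), chr8:32880001-33000000 (r = 0.93) and chr3:54240001-54360000 (r = 0.92). For Cyr61 they were 2 tiles of chromosome 18, beginning at 74040001 (r = 0.88) and 60600001 (r = 0.85), and chr11:81840001-81960000 (r = 0.87). For Ctgf the highest values were lower, 0.72 at chr17:39960001-40080000, 0.70 at chr7:12120001-12240000 and 0.68 at chr4:139800001-139920000.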

How the data were processed

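The data are 28 peak lists, 1 per library and not pooled, deposited by the authors. Per the submitters' processing notes, Bowtie2, SAMtools, bedtools and MACS2 were used with build mm9. How they were set, and whether reads were filtered or shifted, is not given in the sources used here. Each deposited list gives the authors' fold (a ratio, taken here as MACS2's usual summit pileup plus 1 over local background plus 1), a -log10 p and a -log10 q for its summit, a deposited score of 10 times the -log10 q, and the summit position. The lowest -log10 q of each list lay just above 2. These values describe, rank or filter peaks within a list.

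Groups and replicate numbers came from the labels. Only the 20 chromosomes 1 to 19 and X entered, which left out 0.35% of peaks. Overlapping peaks were merged, and 109954 regions in at least 2 libraries were tested as stated beside the results. Windows were 21997 tiles of 120000 bp plus the 3 loci. Named regions were those in all 28 libraries, those passing a comparison of days, those of the highest fold per locus, and the smallest p per comparison of vectors; a region in 4 of 4 libraries of 1 vector and 0 of 4 of another on the same day was to be named, and there was none in the windows. Members and lists were chosen with earlier results of these data known. A planned list of Hippo pathway genes and the marker check of the labelled cell type needed an mm9 annotation and were not run here. Background pileup was recovered from fold and p under the caller's Poisson model. It is an inference, not a read count, and depth in reads is unknown. The tests were checked on simulated data. Alternatives were the number of libraries, the overlap, a -log10 q of at least 5, an equal number of peaks (27809), cover in raw base pairs or peak number, the replicate block, and leaving out each replicate number. Python 3.11.15, numpy 2.4.6, pandas 2.3.3, scipy 1.17.1 and numba 0.67.0 were used.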

Additional observations from a re-analysis of the deposited data

Results flagged for a closer look

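Of 42 groups of 4 libraries checked for a value far from the other 3 (peak cover and regions called, 3 windows, 7 groups), 6 stood out by the gap to the nearest value, where chance gives about 1 in 20. With so few whole numbers a difference of 1 region is enough. At Ctgf, Tet2-E day 5 replicate 3 had a peak cover of 104 against 68.4 to 73.4 in the others. Tet2-WT day 10 replicate 3 called 6 Ctgf regions against 3 in each of the others, and Tet2-WT day 5 replicate 2 called 5 against 6. At Ankrd1, empty vector day 5 replicate 2 called 3 regions against 4, while empty vector day 10 replicate 3 and Tet2-E day 10 replicate 4 called 3 against 2 each.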

How the results depend on the processing

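The comparisons rest on whether a peak passed the authors' threshold. Background pileup differed between days, and its part in the calls of weak regions was not tested. No label says that a replicate number marks a shared animal, batch or day. Deviations from group means over windows correlated at a median of 0.0167 between same-numbered libraries (84 pairs, -0.12 to 0.285, 9 over 0.1) and of -0.00268 between others (252 pairs, up to 0.197, 16 over 0.1). A hint of pairing from the data alone comes from each library's mean correlation with the libraries of each replicate number in other groups. For 14 of 28 libraries this mean was highest for their own number, where chance gives about 1 in 4. Pairing was not settled. With the replicate block 4 regions were gained and 8 lost from MEF to day 5, and 2 gained and 9 lost from MEF to day 10. Calls lost under it were Cyr61 regions 8 and 20 at day 5 (adjusted p = 0.0601 each) and Cyr61 regions 3 and 8 and Ankrd1 regions 6 and 15 at day 10 (adjusted p = 0.0552 each), in an exact test within replicate numbers. No cover call changed under the block. Leaving out 1 replicate number of every group gave 4 gained and 6 to 7 lost at day 5, and 1 to 2 gained and 7 to 10 lost at day 10, where fewer libraries raise the smallest p. In the same settings the cover ratio from day 5 to day 10 was 1.27 to 1.38 at Ctgf, 0.642 to 0.741 at Cyr61 and 0.673 to 0.726 at Ankrd1. If peaks had to cover 50% or more of a region, 2 were gained at day 5, 0 at day 10, and 1 was lost from day 5 to day 10; Ankrd1 region 5, called everywhere otherwise, then changed by -100 percentage points from MEF to either day, which its widths fix, since wide MEF peaks set the merged length. With a -log10 q of at least 5, 1 region was lost from day 5 to day 10. Ctgf cover at day 5 was 0.631 times that of MEFs in raw base pairs, 0.758 times with the stricter threshold and 0.701 times with equal peak numbers, each past the threshold, and at day 10 it was 0.567 times in raw base pairs against 1.08 times as a share. Cyr61 at day 5 was 0.778 times by peak number. From day 5 to day 10, Cyr61 was 0.812 times and Ankrd1 0.683 times with equal peak numbers, and Ankrd1 0.869 times by peak number, none past the threshold. The cause was not tested.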

Other observations

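The adjoining fibroblast and reprogramming regions of Ctgf (regions 5 and 6, 914 bp apart) were looked at after their values were seen. Of the 9721 regions of the genome called more often at day 5 than in MEFs, 175 (1.80%) had a region called less often within that distance, and of the 5053 called more often at day 10, 110 (2.18%) did.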
